A study of Mus musculus with 35 samples.

Results

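The striatal transcriptome of *Htt* Q111/+ mice was compared with that of *Htt* +/+ mice among the animals that had received only saline, the arm given no oligonucleotide. The 12 mice were chosen by their genotype and treatment labels, 6 Q111/+ and 6 +/+, of 35 mice in all. The others had received weekly control ASO (11 mice) or *Htt* ASO (12 mice, labelled ASO1), short antisense oligonucleotides given by the same route. Q111/+ mice carry 1 copy of mouse *Htt* in which a long CAG repeat was knocked in, so that mutant huntingtin is made from the endogenous promoter in every cell that normally makes huntingtin, and the other copy is intact. All 12 were female mice on the C57BL/6J background, bred as littermates, injected intraperitoneally every week with saline at 4 µL per g body mass from 2 months of age and perfused at 10 months, at 300.0 to 304 days. One library was made per mouse, from the right hemistriatum in all 12. Of the treated mice, replicate 6 of the +/+ ASO1 group was labelled as left hemistriatum and was kept in the fit, the ASO1 contrast and the interaction.

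Huntington's disease is caused by an expanded CAG repeat in *HTT*, and the medium spiny neurons of the striatum, its GABAergic projection neurons, are the cells best known to be affected. These neurons read dopamine, adenosine and acetylcholine through G protein-coupled receptors that act on cAMP. Cells of the direct pathway carry the dopamine receptor *Drd1* with the peptide precursors *Tac1* and *Pdyn*, and cells of the indirect pathway carry *Drd2*, the adenosine receptor *Adora2a* and the enkephalin precursor *Penk*. Loss of transcripts typical of these neurons is a known feature of Huntington's disease models.

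Many transcripts differed between the genotypes, mostly by small amounts, and abundant transcripts of medium spiny neurons were lower in Q111/+ mice. Of 17639 genes tested with limma after voom, 3078 (17.4%) passed an adjusted p of 0.05, called here, with 1548 lower (8.78%) and 1530 higher (8.67%) in Q111/+ mice. The 6 Q111/+ values lay entirely below the 6 +/+ values for 686 genes (3.89%) and entirely above them for 561 (3.18%). The median size of a called difference was 0.22 on the log2 scale, 431 called genes exceeded 0.5 and 92 exceeded 1, of which 62 were lower and 30 higher. Levels are CPM, read counts relative to a library size scaled by TMM, and log2 differences are Q111/+ minus +/+ throughout.

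Total counts were similar in both genotypes, 32641448 to 37867044 in Q111/+ and 34353267 to 36266000 in +/+ mice (exact permutation test, two-sided, p = 0.34, n = 6 a group). TMM scaling factors were higher in Q111/+ (0.999 to 1.026) than in +/+ mice (0.971 to 1.003; exact permutation test, two-sided, p = 0.00649, n = 6 a group), and library totals without TMM moved the median of all genes by 0.04 on the log2 scale. The split of calls depended on this, with 49.7% of called genes higher under TMM and 70.0% (2713 higher, 1161 lower) under library totals. Sample titles carry a number after the letter L, read here as a sequencing lane although the labels do not say so. L7 held 3 of the 6 Q111/+ saline mice and no +/+ mouse. L8 held replicates 1 and 5 of the +/+ saline group and no Q111/+ saline mouse. Without the L7 mice of all groups, and with those of L8 kept, 2110 genes were called. With the L number as a covariate 2875 were called. Within the 3 L numbers that held both genotypes (3 Q111/+ and 4 +/+ mice) 1407 of the 1548 genes called lower were lower in each, and 1395 of the 1530 called higher were higher in each. These mice also entered the fit. Over all tested genes, 21.2% were lower and 22.3% higher in each of the 3.

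**Figure D1:**
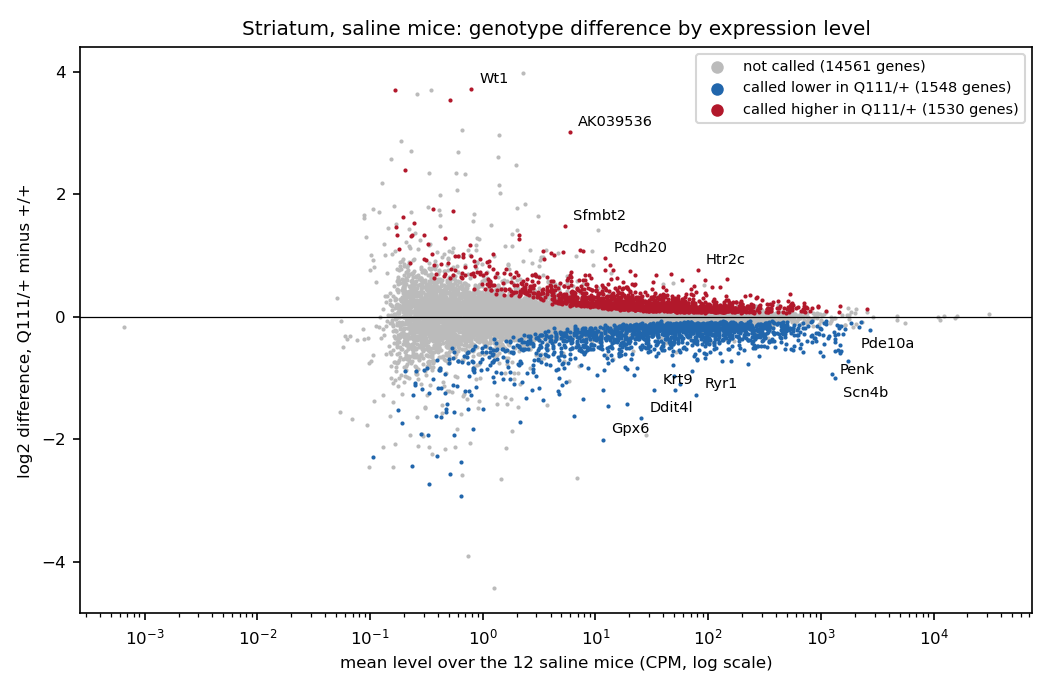
Each point is 1 of 17639 genes, with its mean level over the 12 saline mice on the x axis (CPM, log scale) and its log2 difference, Q111/+ minus +/+, on the y axis; blue and red points passed an adjusted p of 0.05. Among the most abundant genes, blue points outnumber red ones, with *Scn4b*, *Penk* and *Pde10a* the lowest of those named.

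The direction of the calls varied with expression level. Of 70 genes with a mean over 1000 CPM, 32 were called lower and 4 higher, and of 2096 genes between 100 and 1000 CPM, 457 were lower and 251 higher. Of 8037 genes between 10 and 100 CPM, 717 were lower and 922 higher. The excess of decreases over 1000 CPM was also seen under library totals (27 lower, 9 higher), whereas that between 100 and 1000 CPM was not (338 lower, 477 higher). Beside the neuronal genes described below, the most abundant decreases included *Fbxl16*, an F-box protein gene (1565 to 2056 CPM in +/+ mice (median 1829) and 1129 to 1331 CPM in Q111/+ mice (median 1222); log2 difference -0.56 ± 0.06 (SE), adjusted p = 8.40e-09), and *Prkcb*, a protein kinase C (log2 difference -0.45 ± 0.05 (SE), adjusted p = 7.18e-09). The groups did not overlap for either gene. The 4 increases were *Ddx5*, an RNA helicase (0.18), *Eef1a1*, a translation elongation factor (0.12), *Atp5b*, a subunit of ATP synthase (0.10), and *Psap*, the saposin precursor (0.08). Other than *Atp5b*, the genes named in this paragraph were chosen after their values were seen.

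*Htt* itself, listed under its older symbol *Hdh*, ranged from 74.5 to 103 CPM in +/+ mice (median 87.2) and 69.8 to 93.1 CPM in Q111/+ mice (median 78.9). The ranges overlapped and the difference did not pass the test (log2 difference -0.18 ± 0.09 (SE), adjusted p = 0.189, 95% CI -0.37 to 0.01). By the same limma test it was -0.26 in Control (adjusted p = 0.0665) and -0.25 in ASO1 mice (adjusted p = 0.0566), also not called. The counts are per gene and do not separate the mutant from the normal copy.

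Of the 35 genes of medium spiny neuron signalling and identity, 31 were called lower and none higher, with a median log2 difference of -0.41 beside 0.01 for all tested genes. The members of this and the other lists were chosen with earlier results of these data known, so list counts are description only. Of all tested genes, 8.78% were called lower and 8.67% higher. Under library totals *Foxp2* and *Strip2* were called higher, and without Q111/+ replicate 5 or +/+ replicate 5 or 6 a single member was. For 25 of the 31 the groups did not overlap, beside 3.89% of all genes with Q111/+ mice entirely lower. Summed over the 35 genes, the level was 24103 to 26498 CPM in +/+ mice (median 24905) and 17409 to 19828 CPM in Q111/+ mice (median 18009), so each Q111/+ mouse lay below each +/+ mouse. In bulk tissue, fewer cells of a type and less RNA per cell cannot be told apart.

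The smallest adjusted p of all genes belonged to *Ddit4l*, an inhibitor of mTOR signalling, which measured 32.5 to 43.5 CPM in +/+ mice (median 38.9) and 10.3 to 13.8 CPM in Q111/+ mice (median 12.5). Every Q111/+ mouse was below every +/+ mouse, and the mean level was 31.8% of that in +/+ mice (log2 difference -1.65 ± 0.08 (SE), adjusted p = 6.88e-16). *Scn4b*, a sodium channel beta subunit abundant in these neurons, measured 1558 to 1987 CPM in +/+ mice (median 1765) and 771 to 999.8 CPM in Q111/+ mice (median 882), a fall to 49.8% (log2 difference -1.005 ± 0.07 (SE), adjusted p = 3.17e-13). The highest Q111/+ mouse was again well below the lowest +/+ mouse. *Ppp1r1b*, which encodes DARPP-32, the phosphoprotein that relays dopamine signals, fell by 0.54 on the log2 scale (SE 0.06, adjusted p = 2.79e-08), *Arpp21* by 0.59, *Itpka* by 0.57 and *Rasgrp2*, a Rap activator, by 0.55. Smaller decreases included the transcription factor *Bcl11b* (-0.27) and the olfactory-type G protein alpha subunit *Gnal* (-0.15). The 4 members not called were the transcription factors *Foxp1* (-0.15, adjusted p = 0.0891), *Foxp2* (0.08) and *Six3* (0.00), and *Strip2* (0.18, adjusted p = 0.0543).

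**Figure D2:**
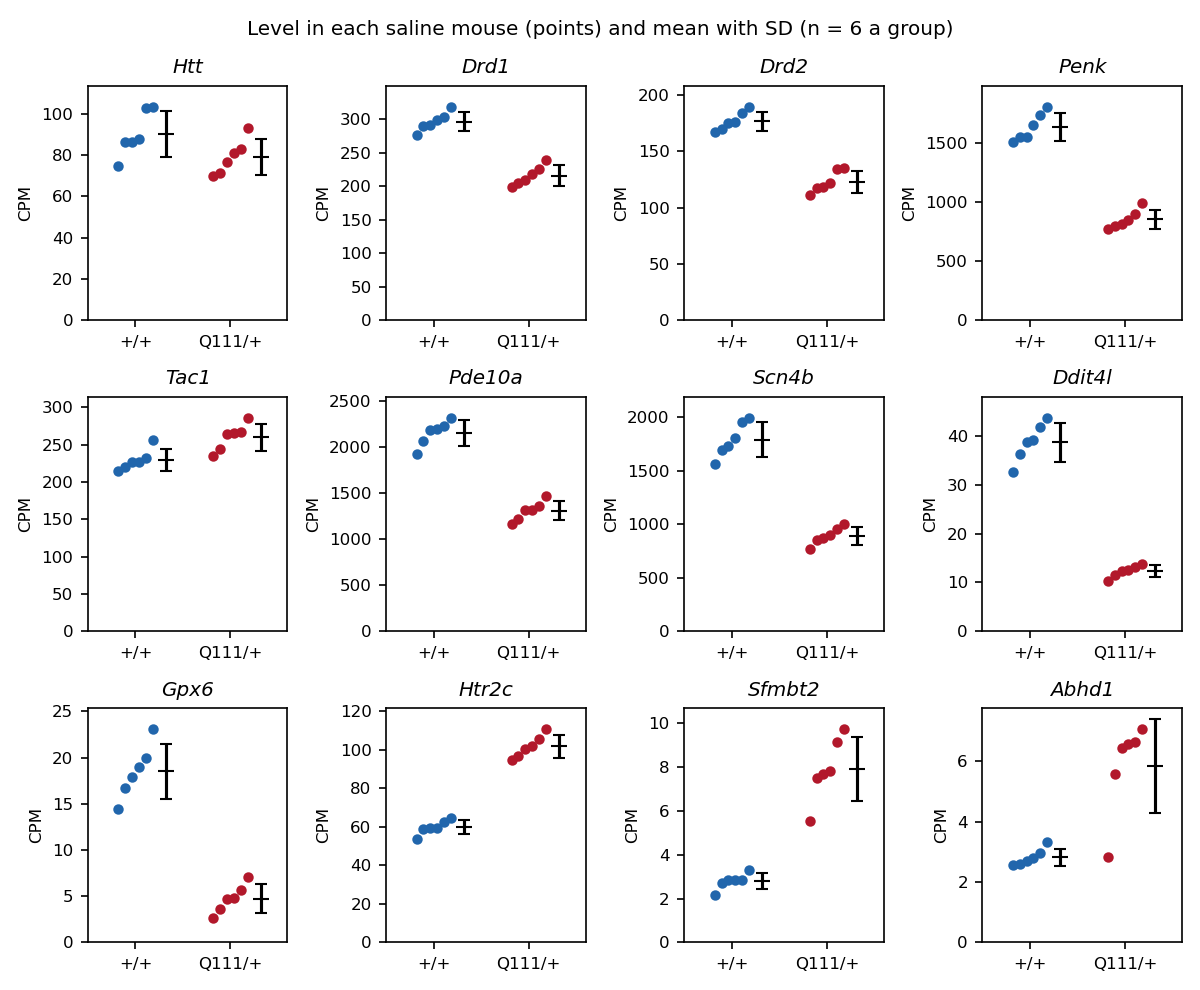
Each point is the level of 1 saline mouse in CPM for 12 genes, +/+ in blue and Q111/+ in red, with the mean and SD (n = 6 a group) to the right of each group; every axis starts at 0. The groups overlap for *Htt*, *Tac1* and *Abhd1* and are separate for the other 9 genes.

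All 4 called members of the 5 indirect pathway markers tested were lower, beside 8.78% of all genes (median -0.60). *Penk* measured 1509 to 1806 CPM in +/+ mice (median 1606) and 774 to 997 CPM in Q111/+ mice (median 833). The enkephalin precursor stood at 52.3% of its +/+ level, and the groups did not overlap (log2 difference -0.94 ± 0.06 (SE), adjusted p = 3.71e-14). *Adora2a* measured 244 to 313 CPM in +/+ mice (median 289) and 150.2 to 183 CPM in Q111/+ mice (median 166) (log2 difference -0.78 ± 0.06 (SE), adjusted p = 6.89e-11), and *Drd2* measured 167 to 189 CPM in +/+ mice (median 175) and 111.3 to 135 CPM in Q111/+ mice (median 120.1) (log2 difference -0.52 ± 0.05 (SE), adjusted p = 3.45e-10). Both receptors were lower in every Q111/+ mouse than in any +/+ mouse. *Gpr6*, an orphan receptor of these cells, is described with its promoter below, and *Sp9*, a transcription factor, was not called (-0.09, adjusted p = 0.553).

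Of 9 direct pathway markers, 3 were called lower and 3 higher, with a median of -0.04 that became 0.00 under library totals. Among all tested genes 8.78% were called lower and 8.67% higher. *Drd1*, listed as *Drd1a*, measured 277 to 318 CPM in +/+ mice (median 295) and 198 to 239 CPM in Q111/+ mice (median 213). The groups were separate, with Q111/+ mice at 72.7% (log2 difference -0.46 ± 0.05 (SE), adjusted p = 6.79e-09). The muscarinic receptor *Chrm4* was lower to a like extent (log2 difference -0.51 ± 0.06 (SE), adjusted p = 2.89e-07). *Tac1*, the substance P precursor, went the other way, at 214 to 256 CPM in +/+ mice (median 227) and 234 to 285 CPM in Q111/+ mice (median 264). Its ranges overlapped (log2 difference 0.18 ± 0.05 (SE), adjusted p = 0.00474), as did those of *Isl1*, a transcription factor of direct pathway neurons (log2 difference 0.32 ± 0.05 (SE), adjusted p = 1.51e-05). *Eya1* was also called higher (0.22), *Sfxn1* lower (-0.23), and *Pdyn*, the dynorphin precursor, was not called (-0.04, adjusted p = 0.773). The difference between the sets was not tested.

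**Figure D3:**
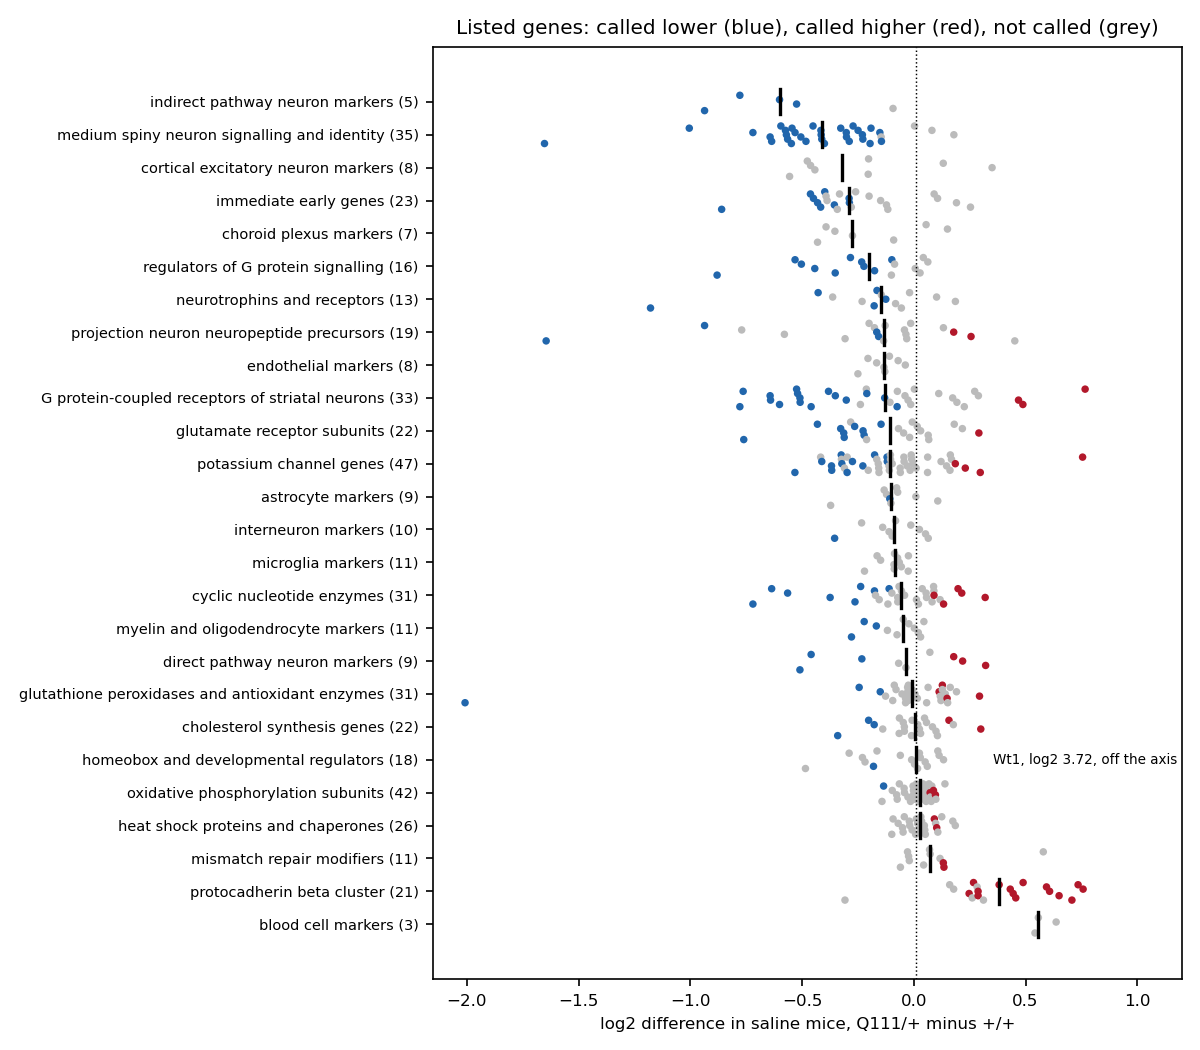
Each point is a tested member of 1 of 26 gene lists, placed by its log2 difference in saline mice, Q111/+ minus +/+; blue, red and grey mark genes called lower, called higher and not called, black bars are list medians and the dotted line is the median of all tested genes. The signalling and indirect pathway lists sit left of the line, the protocadherin beta cluster sits right of it, and *Wt1* at 3.72 lies off the axis.

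Among 33 G protein-coupled receptors of striatal neurons, 16 were called lower and 3 higher, beside 8.78% and 8.67% of all genes. The cannabinoid receptor *Cnr1* fell by 0.64 on the log2 scale (SE 0.07, adjusted p = 2.83e-08), the serotonin receptors *Htr4* and *Htr1b* were at -0.64 and -0.52, and the opioid receptor *Oprd1* was at -0.35. All 3 increases were opposite to this. The serotonin receptor *Htr2c* measured 53.8 to 64.5 CPM in +/+ mice (median 59.4) and 94.5 to 110.5 CPM in Q111/+ mice (median 101). The lowest Q111/+ mouse exceeded the highest +/+ mouse, and the level was 170.1% of that in +/+ mice (log2 difference 0.77 ± 0.06 (SE), adjusted p = 4.70e-11). *Htr2a* (0.47, adjusted p = 0.000914) and *Gpr149* (0.49, adjusted p = 2.71e-05) were the others. Among those not called were *Drd3* (0.27), the opioid receptors *Oprm1* (0.19) and *Oprk1* (-0.11) and the GABA-B subunit *Gabbr2* (-0.03).

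Promoter windows of 3 genes are shown because cAMP, made by *Adcy5* and degraded by *Pde10a* in these neurons, acts on transcription through CREB, which binds the cAMP response element. The windows run from 250 bases before to 50 bases after the start (RefSeq, GRCm38.p6). Capitals mark the palindromic element TGACGTCA. They are of *Ddit4l*, the gene with the smallest p among all genes, which held neither the palindrome nor its core, and of *Gpr6* and *Pcsk1*, the genes with the smallest p among those called lower and higher that held the palindrome.
Ddit4l: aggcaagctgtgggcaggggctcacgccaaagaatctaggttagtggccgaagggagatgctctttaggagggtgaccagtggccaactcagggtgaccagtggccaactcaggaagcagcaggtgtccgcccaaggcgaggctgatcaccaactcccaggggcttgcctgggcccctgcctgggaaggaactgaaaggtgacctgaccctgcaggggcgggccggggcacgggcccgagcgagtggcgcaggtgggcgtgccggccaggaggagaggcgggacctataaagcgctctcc
Gpr6: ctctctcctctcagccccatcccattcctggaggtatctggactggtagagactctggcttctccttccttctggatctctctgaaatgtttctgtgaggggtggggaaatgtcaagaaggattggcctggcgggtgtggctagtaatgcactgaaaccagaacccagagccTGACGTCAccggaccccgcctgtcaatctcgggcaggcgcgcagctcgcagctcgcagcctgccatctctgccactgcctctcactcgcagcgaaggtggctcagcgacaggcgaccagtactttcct
Pcsk1: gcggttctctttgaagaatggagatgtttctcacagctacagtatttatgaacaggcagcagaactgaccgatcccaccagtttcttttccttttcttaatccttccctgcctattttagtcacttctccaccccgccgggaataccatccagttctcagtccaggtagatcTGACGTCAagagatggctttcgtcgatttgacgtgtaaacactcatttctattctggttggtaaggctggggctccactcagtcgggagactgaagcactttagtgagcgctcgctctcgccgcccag
*Ddit4l* lies at chr3:137623422-137623721 (+ strand), *Gpr6* at chr10:41072241-41072540 (- strand) and *Pcsk1* at chr13:75089607-75089906 (+ strand). In both of the last, 1 palindrome began 78 bases before the start, and they moved in opposite directions. *Gpr6* measured 81.9 to 103 CPM in +/+ mice (median 91.4) and 56.4 to 65.7 CPM in Q111/+ mice (median 60.6) (log2 difference -0.60 ± 0.05 (SE), adjusted p = 1.55e-10). *Pcsk1*, a prohormone convertase, measured 7.17 to 10.9 CPM in +/+ mice (median 9.92) and 14.4 to 18.9 CPM in Q111/+ mice (median 17.4; log2 difference 0.85 ± 0.12 (SE), adjusted p = 1.91e-06). The groups were separate for both. Of 11288 tested genes matched to a window, 391 (3.46%) held the palindrome, beside 32 of 1063 called lower (3.01%) and 51 of 1109 called higher (4.599%). The core TGACG, searched on both strands and contained in the palindrome, was in 33.7% of all, 31.0% of lower and 36.2% of higher genes. Among all 32851 windows of the table the shares were 1.79% and 20.8%. *Penk* and *Adora2a* had no window here.

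A list of 31 genes for making, breaking down and responding to cyclic nucleotides, protein kinase A subunits among them, had 8 called lower and 5 higher. The shares of all genes were 8.78% lower and 8.67% higher. The phosphodiesterase *Pde10a*, which degrades cAMP and cGMP in medium spiny neurons, measured 1928 to 2315 CPM in +/+ mice (median 2196) and 1171 to 1467 CPM in Q111/+ mice (median 1318). The groups were far apart, with Q111/+ mice at 60.7% (log2 difference -0.72 ± 0.06 (SE), adjusted p = 2.65e-10). *Pde1b* (log2 difference -0.56 ± 0.05 (SE), adjusted p = 4.70e-11) and *Adcy5*, the main striatal adenylyl cyclase (log2 difference -0.64 ± 0.05 (SE), adjusted p = 1.58e-10), were also lower in every Q111/+ mouse. *Pde7b* was at -0.37 and *Pde2a* at -0.26. The increases were 4 subunits of protein kinase A, namely *Prkar2a* (0.21), *Prkar1b* (0.20), *Prkacb* (0.13) and *Prkar1a* (0.09), and the phosphodiesterase *Pde4d* (0.32, adjusted p = 0.00051). Under the fit of only those saline mice whose L numbers held both genotypes, none of these 5 was called.

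Regulators of G protein signalling, which speed the switching off of G proteins, were called lower for 10 of 16 genes and higher for none (median -0.20). Over all tested genes the shares were 8.78% lower and 8.67% higher. *Rgs14* measured 81.0 to 102 CPM in +/+ mice (median 94.8) and 46.3 to 61.2 CPM in Q111/+ mice (median 49.4), with no overlap (log2 difference -0.88 ± 0.06 (SE), adjusted p = 4.55e-12). *Rgs9*, the striatal member that acts on dopamine receptor signalling, measured 514 to 596 CPM in +/+ mice (median 574) and 374 to 453 CPM in Q111/+ mice (median 383) (log2 difference -0.53 ± 0.05 (SE), adjusted p = 1.92e-10). *Rgs4* fell by 0.50 and *Rgs11* by 0.44 on the log2 scale, while *Rgs2* (0.06), *Rgs8* (0.04) and *Rgs16* (0.01) were not called. Under library totals *Rgs8* was called higher.

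Glutamate receptor subunits were called lower for 9 of 22 genes and higher for 1. The kainate receptor subunit *Grik2* (log2 difference -0.33 ± 0.05 (SE), adjusted p = 1.54e-05) and the metabotropic receptors *Grm4* (-0.43) and *Grm5* (-0.26) were lower with no overlap, and the single increase was *Grm8* (0.29, adjusted p = 0.00157). None of the AMPA receptor subunits *Gria1* (0.07), *Gria2* (0.06), *Gria3* (-0.05) and *Gria4* (-0.07) was called. Of 47 potassium channel genes, beside 8.78% lower and 8.67% higher of all genes, 12 were lower, among them *Kcnh3* (log2 difference -0.53 ± 0.06 (SE), adjusted p = 8.62e-08) and the beta subunit *Kcnab1* (log2 difference -0.41 ± 0.04 (SE), adjusted p = 1.33e-09), and 4 were higher. The modifier subunit *Kcng1* stood apart among these, at 14.4 to 17.0 CPM in +/+ mice (median 14.9) and 23.3 to 30.7 CPM in Q111/+ mice (median 24.8). All 6 Q111/+ mice were above all 6 +/+ mice (log2 difference 0.76 ± 0.08 (SE), adjusted p = 1.02e-08).

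Of 23 immediate early genes, which respond to neuronal activity, 9 were called lower and none higher (median -0.29). The shares over all tested genes were 8.78% and 8.67%. *Jun* (log2 difference -0.45 ± 0.07 (SE), adjusted p = 2.04e-05), *Ier5* (log2 difference -0.40 ± 0.07 (SE), adjusted p = 0.000146) and *Homer1* (log2 difference -0.42 ± 0.06 (SE), adjusted p = 8.58e-06) had the smallest adjusted p, and *Egr2* was lowest at -0.86 (adjusted p = 0.0177). *Fos* (0.09), *Arc* (-0.39), *Npas4* (-0.33) and *Nr4a1* (-0.12) were not called. The summed level ranged from 1156 to 2082 CPM in +/+ mice and from 1151 to 1487 CPM in Q111/+ mice, so the groups overlapped. The count was 4 without the mice of L7, 5 with the L number as a covariate and 5 without Q111/+ replicate 4.

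Peptide precursors of projection neurons, *Penk* and *Tac1* among them, were called lower for 4 of 19 genes and higher for 2, beside 8.78% and 8.67% of all genes. *Scg2*, a granin, was higher (log2 difference 0.26 ± 0.07 (SE), adjusted p = 0.00572), *Chgb* lower (-0.17), *Nxph1* lower (-0.16), and *Crh* lower at a very low level (0.179 to 1.02 CPM in +/+ and 0.0798 to 0.412 CPM in Q111/+ mice; adjusted p = 0.0126). Neurotrophins and their receptors were called lower for 5 of 13 genes. *Sort1*, a sorting receptor for neurotrophins, changed with no overlap (log2 difference -0.18 ± 0.03 (SE), adjusted p = 3.07e-05), and *Ntrk3*, the receptor of neurotrophin 3, was at -0.16. The GDNF family receptors *Gfra1* and *Gfra2* were at -0.13 and -0.43, and the ligand *Nrtn* was at -1.18 (adjusted p = 0.0302) at 0.268 to 0.494 CPM in +/+ mice. *Bdnf* (-0.36, adjusted p = 0.62) and its receptor *Ntrk2* (-0.06) were not called. Without Q111/+ replicate 2 the count was 2, and leaving out Q111/+ replicate 4 or 6, or +/+ replicate 3, 4, 5 or 6, gave 3.

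The 12 largest decreases among called genes at a mean level of 1 CPM or more included few genes of the signalling lists. *Gpx6*, a glutathione peroxidase, measured 14.5 to 23.1 CPM in +/+ mice (median 18.5) and 2.66 to 7.07 CPM in Q111/+ mice (median 4.77). Q111/+ mice held 24.9% of the +/+ level, the largest fall of this set, with a clear gap between the groups (log2 difference -2.01 ± 0.17 (SE), adjusted p = 2.77e-10). *Tmprss6*, a membrane serine protease, stood at 30.5% (log2 difference -1.71 ± 0.20 (SE), adjusted p = 1.19e-07) and *Cpne9*, a copine that binds phospholipids in the presence of calcium, at 32.7% (log2 difference -1.61 ± 0.14 (SE), adjusted p = 1.43e-10). *Il2rb*, a subunit of the interleukin 2 receptor, was at -1.51, the transporter *Slc4a11* at -1.46 and the phosphatase *Ptpn7* at -1.34. The lipid-binding gene *Sec14l3* was at -1.35, the clone *AK079438* at -1.33 and *Plk5*, of the polo-like kinase family and listed as *6330514A18Rik*, at -1.43. The groups did not overlap for any of these. *Ryr1*, a calcium release channel, was the most abundant of the 12, at 94.9 to 136 CPM in +/+ mice (median 105) and 39.3 to 60.3 CPM in Q111/+ mice (median 42.9) (log2 difference -1.27 ± 0.12 (SE), adjusted p = 1.51e-09). The last of the 12, *mKIAA1337*, overlapped between groups (log2 difference -1.26 ± 0.40 (SE), adjusted p = 0.0258), and its difference was -0.50 in Control and 0.40 in ASO1 mice. By smallest adjusted p, the decreases were led by *Ddit4l*, *Krt9*, a keratin (42.3 to 49.5 CPM in +/+ mice (median 46.1) and 17.0 to 24.1 CPM in Q111/+ mice (median 19.97); log2 difference -1.20 ± 0.06 (SE), adjusted p = 7.28e-16), *Ptprv*, a receptor-type phosphatase (log2 difference -1.19 ± 0.07 (SE), adjusted p = 1.44e-14), *Ppp4r4*, a regulatory subunit of protein phosphatase 4 listed as *8430415E04Rik* (log2 difference -0.69 ± 0.04 (SE), adjusted p = 3.71e-14), and *Penk*.

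Among the 12 largest increases, *Sfmbt2*, a Polycomb group gene, measured 2.16 to 3.31 CPM in +/+ mice (median 2.85) and 5.51 to 9.71 CPM in Q111/+ mice (median 7.75). The groups were separate, with Q111/+ mice at 279% of the +/+ level (log2 difference 1.48 ± 0.14 (SE), adjusted p = 2.05e-09). *Pcdh20*, a protocadherin, measured 7.69 to 8.71 CPM in +/+ mice (median 8.18) and 12.9 to 18.9 CPM in Q111/+ mice (median 16.5) (log2 difference 0.96 ± 0.09 (SE), adjusted p = 1.01e-09), and *Rprm*, a cell cycle arrest gene, was at 1.097 (adjusted p = 3.76e-09). *Slitrk6*, a neuronal transmembrane protein, was at 1.05, *Insyn2b*, listed as *EG574403*, at 1.07, *Tnnt2*, a troponin, at 1.04 and *Dsg1c*, a desmoglein, at 1.07, all without overlap. *Klhl14* (1.33), *Tmc3* (1.27) and *Tmco5* (1.02) lay near 1 CPM in +/+ mice. *Abhd1*, a hydrolase gene, measured 2.58 to 3.32 CPM in +/+ mice. It was between 5.57 and 7.05 CPM in 5 of the 6 Q111/+ mice and 2.81 CPM, inside the +/+ range, in the remaining one, replicate 5 (log2 difference 1.01 ± 0.15 (SE), adjusted p = 8.37e-06). The clone *AK039536* had the largest fold change but was at 0 CPM in some +/+ mice and up to 14.6 CPM in another, against 4.12 to 8.92 CPM in Q111/+ mice (log2 difference 3.02 ± 0.98 (SE), adjusted p = 0.0279). It was not called by edgeR or DESeq2, nor without +/+ replicate 2 or 5.

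By smallest adjusted p, the increases were led by genes of moderate level. *Cd200*, a membrane glycoprotein that restrains microglia, measured 55.7 to 61.6 CPM in +/+ mice (median 59.9) and 75.3 to 87.6 CPM in Q111/+ mice (median 82.7) (log2 difference 0.46 ± 0.04 (SE), adjusted p = 1.89e-11). *Htr2c* followed, and *Olfm3*, an olfactomedin (24.2 to 28.8 CPM in +/+ mice (median 26.5) and 38.5 to 46.1 CPM in Q111/+ mice (median 43.2); log2 difference 0.68 ± 0.06 (SE), adjusted p = 1.04e-10), *Lrrn3*, a leucine-rich repeat protein of neurons (log2 difference 0.61 ± 0.05 (SE), adjusted p = 2.86e-10), and *Stmn2*, a regulator of neuronal microtubules (68.7 to 80.3 CPM in +/+ mice (median 75.4) and 103 to 128 CPM in Q111/+ mice (median 112); log2 difference 0.59 ± 0.05 (SE), adjusted p = 4.77e-10), completed the 5. None of these overlapped between groups. *Islr2* (25.6 to 36.3 CPM in +/+ mice (median 34.0) and 37.4 to 45.0 CPM in Q111/+ mice (median 42.5); log2 difference 0.36 ± 0.10 (SE), adjusted p = 0.014) and *N4bp2*, listed as *B3bp* (log2 difference 0.64 ± 0.14 (SE), adjusted p = 0.00166, overlapping), were also higher.

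The protocadherin beta cluster, a tandem array of single-exon genes for neuronal cell surface adhesion molecules, was called higher for 15 of 21 genes and lower for none, beside 8.67% of all genes called higher. The median was 0.38 (0.42 under library totals), and 12 of the 21 had groups that did not overlap. For 3.18% of all tested genes Q111/+ mice were entirely higher. *Pcdhb13* measured 6.08 to 10.7 CPM in +/+ mice (median 9.33) and 14.1 to 16.9 CPM in Q111/+ mice (median 15.1) (log2 difference 0.76 ± 0.10 (SE), adjusted p = 1.14e-06), *Pcdhb3* measured 4.38 to 5.18 CPM in +/+ mice (median 4.74) and 6.62 to 8.62 CPM in Q111/+ mice (median 7.34) (log2 difference 0.65 ± 0.09 (SE), adjusted p = 6.68e-07), and *Pcdhb20* measured 13.7 to 17.0 CPM in +/+ mice (median 15.4) and 19.6 to 24.4 CPM in Q111/+ mice (median 21.6) (log2 difference 0.49 ± 0.06 (SE), adjusted p = 4.09e-07). In all of these, each Q111/+ mouse was above each +/+ mouse. *Pcdhb2* (0.74), *Pcdhb21* (0.71) and *Pcdhb19* (0.61) were of like size. The exception in direction was *Pcdhb8* (-0.31, adjusted p = 0.178). Summed over the 21 genes, the level was 150 to 165 CPM in +/+ mice and 189 to 228 CPM in Q111/+ mice. These genes are similar in sequence, so the division of reads among them by RSEM is uncertain. Called higher were 13 in Control mice (all genes 10.1%) and 10 in ASO1 mice (all genes 10.9%).

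Of 62 developmental regulators listed, 18 passed the filter on low counts and 2 were called, beside 17.4% of all tested genes. *Wt1*, a zinc finger transcription factor of kidney and gonad development, had 324 counts summed over the 6 Q111/+ libraries and 22 over the 6 +/+ libraries, a ratio of 14.01 (95% interval 9.09 to 22.7, covering counting error only). Its level was 0.919 to 2.26 CPM in Q111/+ mice and 0.0290 to 0.149 CPM in +/+ mice, so even the lowest Q111/+ mouse was clear of the highest +/+ mouse (log2 difference 3.72 ± 0.51 (SE), adjusted p = 1.64e-06). The same difference was 4.12 in Control and 4.66 in ASO1 mice. Each +/+ saline library held 1 to 5 counts and each Q111/+ one 33 to 85. The filter asked for 10, so among saline mice *Wt1* met it only through the Q111/+ group. Its ratio, p and gap between groups are therefore given as description only. *Lhx2* was lower (log2 difference -0.18 ± 0.06 (SE), adjusted p = 0.0385) and *Pax6* (0.11), *Lhx6* (0.03) and *Nkx2-1* (-0.22) were not called. The other members, many of them *Hox* genes, were below the filter or not analysed here.

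Of 31 antioxidant enzymes, 3 were called lower and 4 higher, beside 8.78% and 8.67% of all genes. *Sod2*, the mitochondrial superoxide dismutase, was higher (169 to 172 CPM in +/+ mice (median 171) and 174 to 196 CPM in Q111/+ mice (median 187); log2 difference 0.13 ± 0.03 (SE), adjusted p = 0.000539), as were *Prdx2* (0.15), *Prdx3* (0.11) and *Gsta4* (0.29), while *Gpx6* (-2.01, described above), *Hmox1* (-0.24) and *Prdx5* (-0.15) were lower. Of 26 chaperones, 2 were called, *Dnajb6* (0.09) and *Dnajb9* (0.10), and neither *Hspa1a* (-0.10) nor *Hspa8* (0.13) was. Of 42 subunits of oxidative phosphorylation, 3 were higher, *Atp5b* (log2 difference 0.10 ± 0.02 (SE), adjusted p = 0.00174), *Sdha* (0.07) and *Atp5c1* (0.09), and *Ndufs3* was lower (-0.14). Under library totals 14 subunits were called higher. Of 22 cholesterol synthesis genes, 3 were lower, *Acat2* (log2 difference -0.34 ± 0.04 (SE), adjusted p = 1.88e-08), the regulator *Srebf2* (-0.18) and *Msmo1* (-0.20), and 2 were higher, *Mvk* (0.30) and *Pmvk* (0.16). The mismatch repair gene *Mlh3*, whose product acts on CAG repeat instability, was higher by 0.13 (adjusted p = 0.00829), and *Msh3* (-0.02) and *Fan1* (-0.06) were not called.

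The dissected tissue also holds other cell types, and few of their markers were called in saline mice. None of 11 microglial, 8 endothelial, 7 choroid plexus, 8 cortical neuron or 3 blood cell markers was called, beside 17.4% of all genes. The log2 difference was negative for all 11 microglial (median -0.09) and all 8 endothelial markers (median -0.13), for 6 of the cortical (median -0.32) and for 5 of the choroid plexus markers (median -0.27). It was positive for all 3 blood cell markers (median 0.56). In Control mice 7 endothelial, 3 blood cell, 2 microglial and 1 choroid plexus markers were called lower, beside 8.46% of all genes. One cortical marker was called higher there, beside 10.1%. In ASO1 mice 3 endothelial markers were called lower and 1 cortical marker higher, beside 10.2% and 10.9% of all genes. In the 12 saline mice fitted alone, the microglial complement genes *C1qb* and *C1qc* were called. The cortical markers summed to 24.7 to 87.3 CPM in +/+ and 23.0 to 55.4 CPM in Q111/+ mice, the choroid plexus markers to 62.3 to 108 and 53.8 to 109 CPM, and the blood cell markers to 43.5 to 127 and 54.6 to 170.0 CPM, so these ranges overlapped. *Gfap*, an astrocyte marker that rises in gliosis, was at -0.12 (adjusted p = 0.589). Of 9 astrocyte markers only *Glul* was called (-0.11, adjusted p = 0.0474), a call lost under library totals and with the L number as a covariate. Of 11 myelin and oligodendrocyte genes, 3 were lower, among them *Ugt8a* (log2 difference -0.28 ± 0.08 (SE), adjusted p = 0.0113) and *Cldn11* (-0.17), while *Mbp* (-0.05), *Mog* (0.05) and *Olig2* (-0.08) were not called. Of 10 interneuron markers, *Th*, encoding tyrosine hydroxylase, was lower (log2 difference -0.35 ± 0.11 (SE), adjusted p = 0.0239), and *Pvalb* (-0.01), *Sst* (-0.11) and *Chat* (0.06) were not called. The part of these cells in the differences above was not tested.

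Calls were spread over all chromosomes, with more increases on the X chromosome than elsewhere. Of 514 tested genes placed on the X chromosome, 112 (21.8%) were called higher, *Htr2c* among them, and 26 (5.06%) lower. Chromosome 18, which carries the protocadherin beta cluster, had 65 higher (15.6%) and 34 lower (8.17%) of 416. The excess on the X chromosome was also found in Control mice (95 higher, 28 lower) and in ASO1 mice (105 higher, 36 lower), beside 10.1% and 10.9% of all genes called higher in those arms. Under library totals 169 genes on the X chromosome were higher and 17 lower in saline mice. Within 5 Mb of *Htt* on chromosome 5, 15 of 117 genes were called lower and 15 higher (25.6%), beside 18.7% of genes placed elsewhere. The smallest adjusted p in this window belonged to *Zfyve28* (79.5 to 102 CPM in +/+ mice (median 93.5) and 63.6 to 73.4 CPM in Q111/+ mice (median 67.9); log2 difference -0.44 ± 0.05 (SE), adjusted p = 4.93e-08), the adrenergic receptor *Adra2c* (34.2 to 46.5 CPM in +/+ mice (median 38.2) and 23.9 to 29.5 CPM in Q111/+ mice (median 27.3); log2 difference -0.52 ± 0.07 (SE), adjusted p = 6.09e-07) and *Wdr1*, an actin regulator (77.4 to 83.8 CPM in +/+ mice (median 83.1) and 90.8 to 96.7 CPM in Q111/+ mice (median 92.7); log2 difference 0.19 ± 0.03 (SE), adjusted p = 1.48e-06). The groups were separate for all 3, and *Abhd1* lies in the same window.

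**Figure D4:**
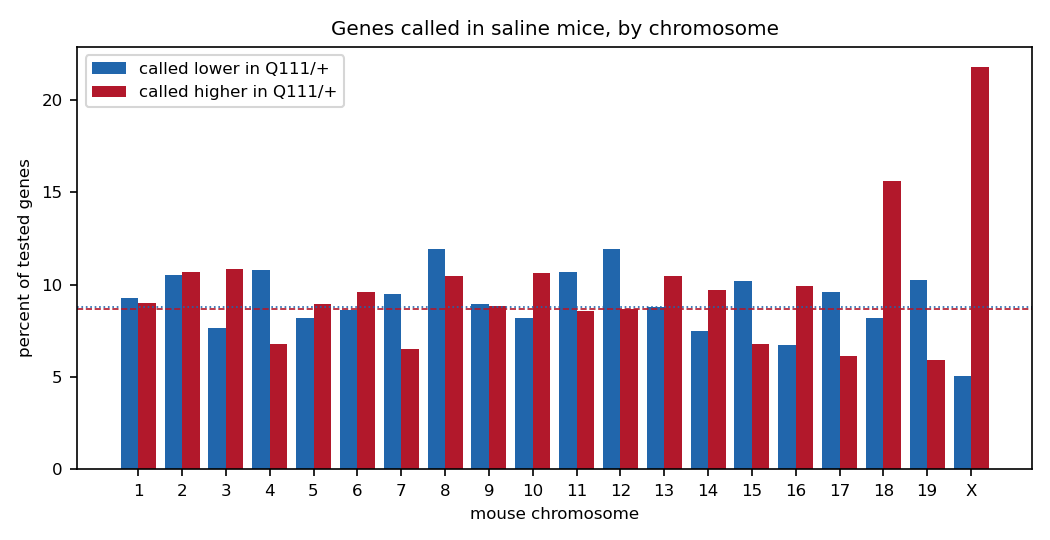
Bars give the percentage of tested genes on each mouse chromosome called lower (blue) or higher (red) in Q111/+ saline mice, and the dotted and dashed lines are the percentages over all tested genes, 8.78% lower and 8.67% higher. The X chromosome has the tallest red bar, 21.8%, and the shortest blue bar, 5.06%.

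The same contrast was also fitted in the treated mice, which are separate animals, so its size can be set beside that in saline mice. L7 held Q111/+ mice of both treated arms too and no +/+ mouse, so that imbalance was shared. The genotype difference called 3266 genes in Control mice (18.5%; 8.46% lower and 10.1% higher) and 3733 in ASO1 mice (21.2%; 10.2% lower and 10.9% higher). Of the genes called lower in saline mice, 1474 of 1548 had a negative difference in Control mice, and 1500 of 1530 called higher had a positive one. The like shares over all tested genes are not given here. For *Ddit4l* the difference was -1.65 in saline, -1.72 in Control and -1.74 in ASO1 mice. For *Penk* it was -0.94, -0.86 and -0.98, and for *Htr2c* 0.77, 0.63 and 0.72. A test of the saline difference against the mean of the other arms called no gene by limma or edgeR. At an unadjusted p under 0.05 there were 1256 (7.12%) by limma and 1292 by edgeR. By DESeq2 it called 1, *Nsddr* (adjusted p = 0.037, beside 0.796 in limma), and 1220 were at an unadjusted p under 0.05. The median SE of this interaction was 0.08. The smallest unadjusted p belonged to *Xlr* (saline 0.28, Control -0.30, ASO1 -0.43), *Ssh3* (-0.07, 0.18, 0.26) and *Zfp692* (-0.08, 0.11, 0.15), none of which was called in saline mice, with a smallest adjusted p of 0.463.

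**Figure D5:**
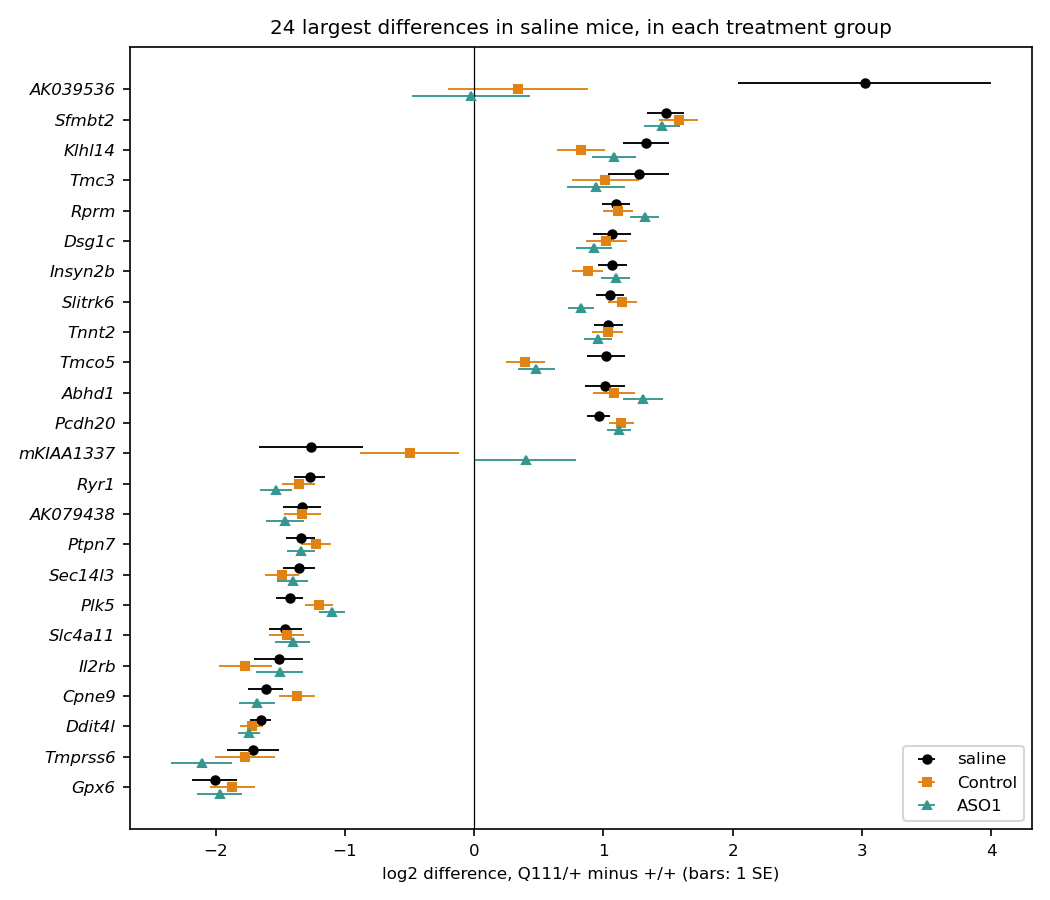
For the 24 genes with the largest differences in saline mice, circles, squares and triangles give the log2 difference, Q111/+ minus +/+, in saline, Control and ASO1 mice with 1 SE. The 3 symbols lie close together for most genes and apart for *AK039536*, *mKIAA1337* and *Tmco5*, which was 1.02 in saline, 0.40 in Control and 0.48 in ASO1 mice.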

How the data were processed

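The authors made stranded TruSeq libraries, read in pairs, and estimated each gene's share of the reads with RSEM after alignment to mouse transcripts. The submitters' processing notes name Bowtie 0.12.9, RSEM 1.1.18 and mm9. What was deposited are expected counts without library scaling, 55.6% of them whole numbers. RSEM divides reads shared by similar genes, so members of gene families are less certain. Genes keep the symbols of the deposited table, with current names from RefSeq (GRCm38.p6), which placed 14781 tested genes.

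Of 22099 genes, filterByExpr (edgeR 4.0.16) kept 17639. A model with a mean for each of the 6 groups was fitted to all 35 mice with TMM, voom and limma 3.58.1 (29 residual and 4.30 prior degrees of freedom), and a gene was called at a Benjamini-Hochberg adjusted p under 0.05 over the whole table. The members, the 26 gene lists and the rules were chosen with earlier results of these data known. Genes were named if they were *Htt* or the transcripts the study had singled out (*Drd1*, *Pde10a*, *Islr2*, *N4bp2*), among the 12 largest changes each way with a mean of at least 1 CPM, the 5 smallest adjusted p each way, the 4 smallest in each list with other members added to account for it, the 3 smallest for the interaction, or the 3 smallest within 5 Mb of *Htt*. On simulated counts for the saline comparison (17545 genes), 33 of 50 changes of 1.25-fold, 47 of 50 of 1.5-fold and all 50 of 2-fold were called, with 12 unchanged genes. Each sample is a separate mouse. In all 30 saline pairs of the same genotype the counts differed by more than sampling noise, with chi-square over its degrees of freedom from 4.66 to 15.8. DESeq2 1.42.0 and the quasi-likelihood test of edgeR, on rounded counts, were alternatives. Proteins were not analysed here. Some genes that these rules name are not reported here.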

Additional observations from a re-analysis of the deposited data

Results flagged for a closer look

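For 102 named genes, library totals and TMM factors, the highest and lowest of the 6 mice in each saline group were compared with the others by Dixon's ratio, the gap to the nearest mouse over the range (critical value 0.625). Of 208 groups of 6 mice, 10 had a mouse apart, and chance alone flags about 1 group in 20. Among Q111/+ mice, replicate 5 was lowest for *Abhd1* (2.81 CPM, next 5.57) and for *Cpne9* (2.28 CPM, next 3.13), replicate 3 was highest for *Tmc3* (6.22 CPM, next 3.43), and replicate 1 was highest for *Rgs9* (453 CPM, next 391) and *Per1* (144 CPM, next 131). Replicate 2 was lowest for *Ndufs3* (77.6 CPM, next 81.0) and highest for *Prdx2* (166 CPM, next 159). Among +/+ mice, replicate 6 was lowest for *Plk5*, listed as *6330514A18Rik* (24.8 CPM, next 27.4), replicate 5 was highest for *Kcng1* (17.0 CPM, next 15.01), and replicate 3 was lowest for *Homer1* (132 CPM, next 174). For *Abhd1*, *Homer1* and *Per1* the mouse apart lay inside the range of the other genotype. No gene passed the limma test of the saline genotype difference against the mean of the Control and ASO1 differences.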

How the results depend on the processing

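None of the 102 named genes changed direction under any of 24 alternatives. Of 2446 values, 2271 kept their side of the threshold, 171 were no longer called and 4 were newly called. Among the 3078 called genes, edgeR shared 3014 and DESeq2 3009 calls with the main analysis. Only in saline mice whose L numbers held both genotypes, 652 genes were called (233 higher, 419 lower), with 67 list members and 3 genes near *Htt*. When the treated groups were kept for the spread, an alternative chosen after seeing the data, the same mice gave 1613 (769 higher, 844 lower), 96 list members and 13 genes near *Htt*. Fewer mice entered both. Library totals without TMM gave 2713 higher genes, and with only the 12 saline mice, chosen after seeing the data, 986 lower. Without the mice of L7 the Control contrast called 1902 genes. DESeq2 called 1 interaction gene.

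Leaving out each saline mouse in turn gave 2529 (without Q111/+ replicate 2) to 3062 called genes, 1226 to 1532 higher and 1303 to 1570 lower, and 138 to 154 list members. The Control and ASO1 contrasts ranged from 3188 to 3330 and from 3655 to 3803, the genes near *Htt* from 25 to 31, the interaction stayed at 0, and the share of promoters with the palindrome ranged from 2.83% to 3.40% of lower and from 3.89% to 5.24% of higher genes. The difference in TMM factor ranged from 0.0231 to 0.0295. That in total counts ranged from 446396 to 1491515 and passed the exact permutation test only without Q111/+ replicate 5 (1491515, two-sided, p = 0.026).

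Small list counts moved by over 1.5 times when 1 mouse was left out. Higher chaperones went from 2 to 0 without Q111/+ replicate 2, 5 or 6 or +/+ replicate 3, 5 or 6. Higher oxidative phosphorylation genes went from 3 to 5 without Q111/+ replicate 1 or +/+ replicate 3. Higher cholesterol genes went from 2 to 1 without any single mouse other than Q111/+ replicate 3 and +/+ replicates 1 and 5. Lower oxidative phosphorylation genes went from 1 to 3 without +/+ replicate 2, and higher glutamate receptors from 1 to 2 without replicate 1 of either genotype. Of the markers of other cells, *C1qb* was called with the L number as a covariate or without Q111/+ replicate 3, *Aif1* without Q111/+ replicate 1, *Fezf2* without Q111/+ replicate 1 or +/+ replicate 3 or 6, and *Slco1a4* without Q111/+ replicate 6. *Lhx2* lost its call in 7 and *Glul* in 8 of the 12 settings that left out a mouse, and *Th* lost it without Q111/+ replicate 3 or 6. The 31 lower genes of the medium spiny neuron list ranged from 22 to 32 and the 15 higher protocadherins from 8 to 17 over all alternatives.

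No paired analysis was possible because the labels give no replicate numbers. Those used here follow accession order and pair no mice. Of 2548 genes under 1 CPM, where counts are fewest, 126 were called, and the effect of depth on calls was not tested.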

Other observations

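Among genes with a mean under 1 CPM, which the rule for the largest changes left out, 72 were called lower and 54 higher. The transcription factor *Mafa* was at 0.697 to 1.71 CPM in +/+ and 0.0917 to 0.334 CPM in Q111/+ mice (log2 difference -2.38 ± 0.28 (SE), adjusted p = 1.27e-07 by limma). *Sla2*, an adaptor of lymphocyte receptors, was at 0.522 to 0.871 and 0.0749 to 0.214 CPM (-2.28, adjusted p = 1.46e-07), and *Vdr*, the vitamin D receptor, at 0.435 to 0.822 and 0.111 to 0.284 CPM (-1.62, adjusted p = 7.85e-06). *Rgs13*, a regulator of G protein signalling outside the list above, went the other way, at 0.140 to 0.209 CPM in +/+ and 0.441 to 0.670 CPM in Q111/+ mice (1.76, adjusted p = 2.92e-07). The groups did not overlap for any of the 4, which were chosen after their values were seen. At such levels a gene can pass the filter on low counts only through the genotype where it is higher. This was not checked for the 4. As for *Wt1*, their differences, p and gaps between groups are therefore given as description only.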
